A study of Mus musculus with 16 samples.

Results

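Genes that build, modify and cut the extracellular matrix were examined in cultured adult mouse neural stem cells. The set held 41 genes, and a gene's probe sets were used where the platform annotation gave them that gene's symbol alone. Of the 41 genes, 40 had such a probe set, and Fbn1 (fibrillin-1, a microfibril protein) was not analysed here because 0 probe sets carried its symbol. The 40 genes had 72 probe sets, and the 1 with the highest mean represented each gene among 12393 genes in all.

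Collagens are triple-helical proteins that are hydroxylated and folded in the endoplasmic reticulum before they are secreted and crosslinked. Laminins are heterotrimers of an alpha, a beta and a gamma chain that form basement membranes together with type IV collagen, nidogens and perlecan. Brain tissue is poor in fibrillar collagen and rich in hyaluronan-binding proteoglycans and tenascins, and the vascular basement membrane and its extensions reach the stem cells of the adult subventricular zone.

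Every one of the 16 cultures was Tlx(f/Z) in the notation of the labels, where Tlx is the orphan nuclear receptor gene Nr2e1 that keeps neural stem cells dividing. In 8 cultures the genotype also held CreER, a Cre recombinase tethered to an estrogen receptor domain so that 4OH-TM (4-hydroxytamoxifen) switches it on, and the other 8 had no Cre. Each genotype was given vehicle or 4OH-TM and collected after 36 h or 60 h, which gave 8 groups of 2 biological replicates, with 1 array for each culture. The labels explain neither the f nor the Z allele, name no promoter for CreER, and give no age. They do not say whether the 8 cultures of a genotype came from more than 1 animal or line, so genotype and culture origin cannot be told apart and p-values measure only the spread between these cultures.

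Signals are linear array intensities as deposited, and their number limits the precision. Median signal per array lay between 92.2 and 132.6, replicate arrays correlated across probe sets at r = 0.988 to 0.991, and the median correlation between genotypes was 0.973. The Esr1 probe set gave 279 to 444 on CreER arrays and 11.7 to 32.2 on arrays without Cre. Nr2e1 had 0 probe sets under its symbol, so the targeted gene did not check the labels. RNA integrity, read from the actin control probe sets as the signal at the 5' end over that at the 3' end, was 0.548 to 0.667 at 36 h without Cre, 0.773 to 0.891 at 60 h without Cre, and 0.716 to 0.882 in CreER cultures. Of 11 neural stem cell markers with a probe set 9 were tested, among them Nes (nestin), at 1776 ± 337 with CreER and 2912 ± 357 without (SD, n = 8 each), and Sox2, at 1736 ± 316 and 1689 ± 257. Prom1 and Hes5 lay below background on all arrays.

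A gene counted as above background in a group when both arrays exceeded their own 40th percentile of signal, which lay between 45.6 and 62.5 over the arrays. By this measure 22 of the 40 genes were above background in all 8 groups, 8 in some groups and 10 in none. The 10 were Col1a1, Col1a2 and Col3a1, which encode the chains of the main fibrillar collagens, Lama1, Lama2, Bgn (biglycan), Dcn (decorin), Lox and Loxl1, which crosslink collagen and elastin, and P4ha2, a prolyl hydroxylase subunit. The highest single signal among Col1a1, Col1a2 and Col3a1 was 41.2, on a CreER array of Col3a1. Dcn and Loxl1 stayed at or below 20.8 on all 16 arrays. A gene was tested when its mean over all arrays reached a signal of 51.1 on the log2(signal + 16) scale, and 28 of the 40 genes were tested. The other 12 were the same 10 genes with Col6a1 and Nid1.

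The main comparison set the 8 CreER arrays against the 8 arrays without Cre over the 4 conditions of treatment and time. In CreER cultures the collagen chaperone Serpinh1, the laminin chain Lama4, fibulin-2 (Fbln2) and the type V collagen chain Col5a2 were lower by at least 4.22-fold, and fibulin-1 (Fbln1) and the partner chain Col5a1 were higher by 2.89-fold and 2.43-fold. Of the 28 tested genes 8 were higher, 15 were lower and 5 were not called, at a limma adjusted p under 0.05. The 15 include Lama4 and Col11a1, which reached the limit for testing only through the arrays without Cre. Of all 7619 tested genes 11.4% were called higher and 40% lower. The median difference was -0.37 for the members and -0.14 for all tested genes, on the log2(signal + 16) scale.

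That scale is used for all differences below, and it understates the change of dim genes. Quantile normalization gives all arrays the same distribution of signals, so by construction it moved the median shift of all genes close to zero, to 0.014. The source of that shift was not tested. After quantile normalization 33.6% of all genes were called higher and 31.6% lower, with 10 members higher and 15 lower, so the share of members called higher was then near that of all genes. All 23 members called as deposited kept their call and direction after quantile normalization and after median scaling, and Hspg2 and Lamb1 were called higher in both. In the fit of the deposited signals each gene's spread came from a trend shared by all genes, and adjusted p-values of large differences were then too small to be read. Unless given as deposited, the adjusted p-values beside genotype differences of single genes are therefore those of the same limma model after quantile normalization. Unless stated otherwise, the differences and SE printed with them are of the deposited signals, so the p-values come from a different fit. Among the called members the quantile-normalized p-value was the smaller for Plod1, P4ha1, Lama5, Fn1, Sparc, Bcan and Ncan, and both are given.

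**Figure D1:**
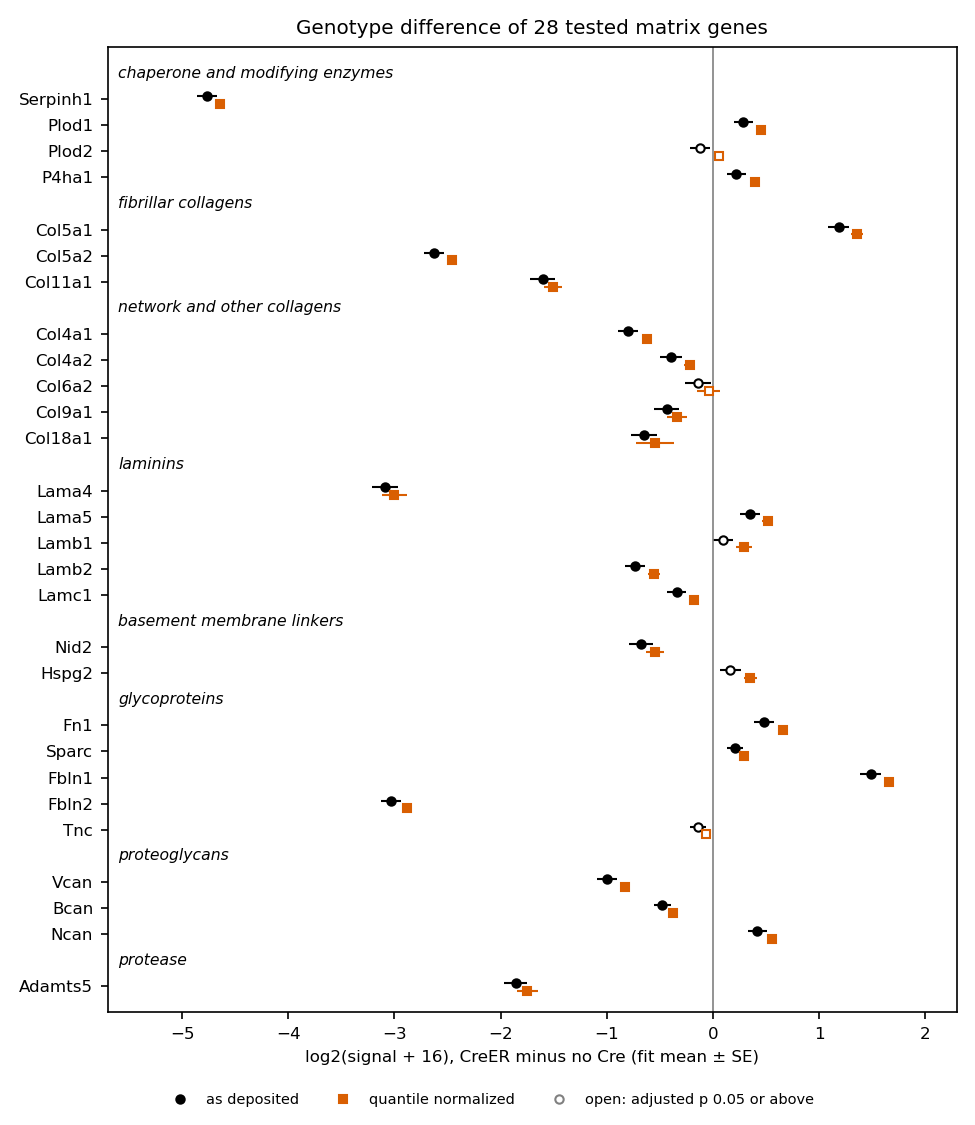
Genotype difference of the 28 tested matrix genes, grouped by role, as the fitted mean of CreER minus no Cre on the log2(signal + 16) scale with its SE (horizontal bars). Black circles are deposited signals, orange squares quantile-normalized ones, and open symbols have an adjusted p of 0.05 or above. Serpinh1 at -4.76 lies far to the left of the rest, and Fbln1 at 1.49 is the highest; Lama4 and Col11a1 were below background on all CreER arrays, so their points are fitted values and not bounds.

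In individual arrays, 3 of the 28 members were higher and 9 lower with no overlap between the 8 CreER and the 8 other arrays. Of all tested genes 2.6% were higher and 8.01% lower in this way. The 3 were Col5a1, Fn1 and Fbln1, and the 9 were Serpinh1, Col4a1, Col5a2, Col11a1, Lama4, Fbln2, Vcan, Bcan and Adamts5. Lama4 and Col11a1 were above background, and so passed the filter, only through the arrays without Cre.

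**Figure D2:**
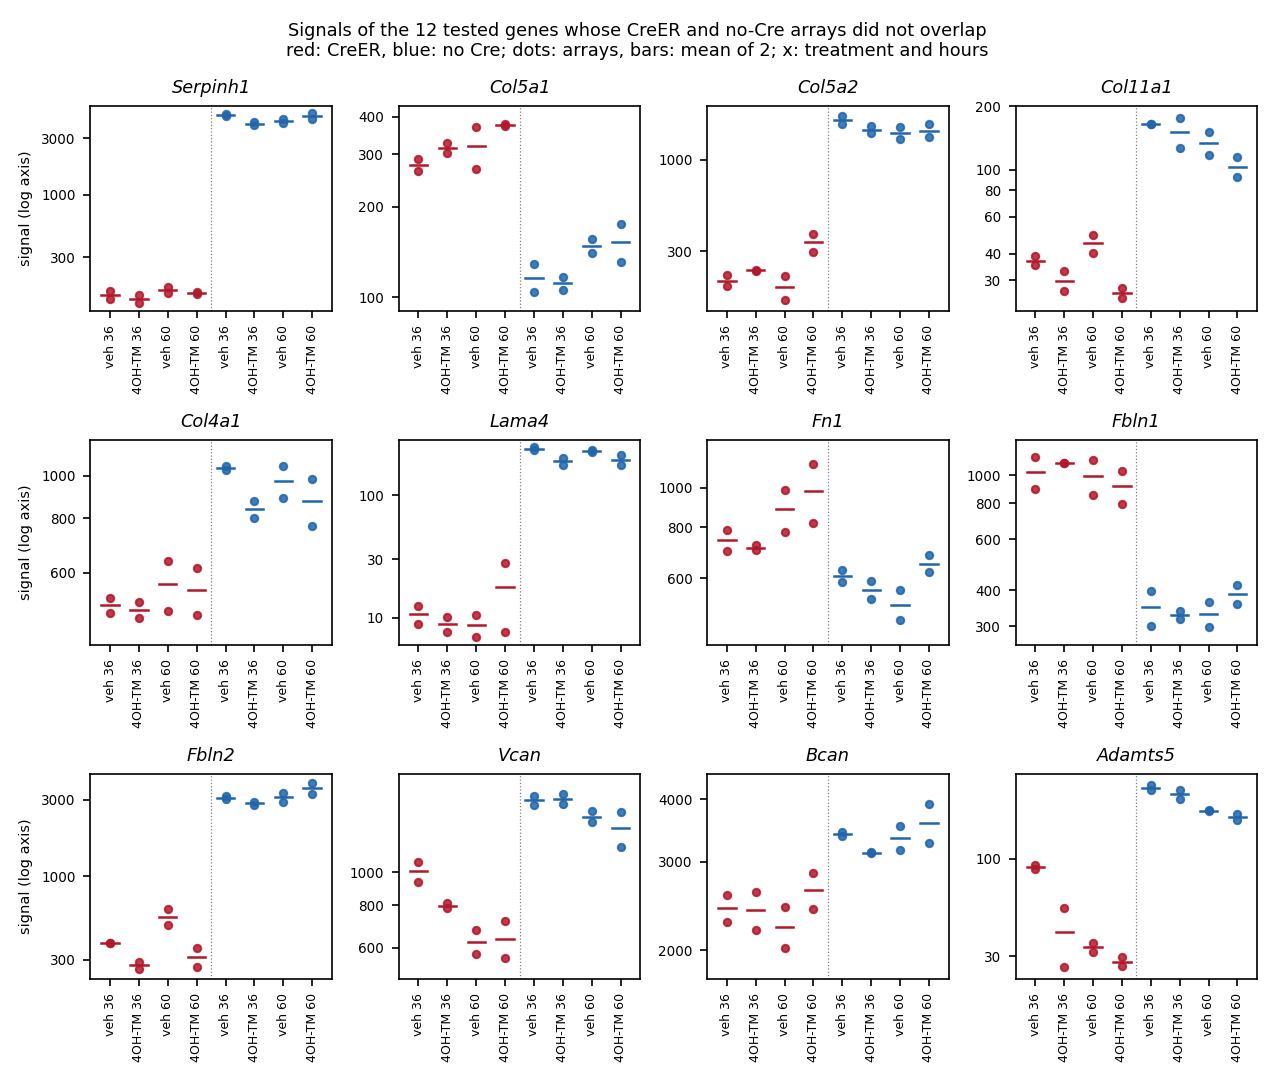
Signal of each array (dots, log axis) and mean of the 2 replicates (bars) in the 8 groups for the 12 genes whose CreER (red) and no-Cre (blue) arrays did not overlap; each panel has its own axis. Every panel separates the genotypes at both times and under both treatments, from Serpinh1, with CreER arrays at 122 to 167 and others at 3849 to 4922, to Bcan, with 2019 to 2854 against 3124 to 3913.

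Serpinh1 encodes HSP47, the endoplasmic reticulum chaperone that binds folded procollagen. Its signal was 122 at the lowest, 149 at the median and 167 at the highest over the 8 CreER arrays, against 3849, 4367 and 4922 over the 8 arrays without Cre. All arrays were above background, and the genotypes were 30.0-fold apart in their means. The difference of -4.76 ± 0.094 (SE) was the lowest of the 7619 tested genes (limma, quantile-normalized adjusted p = 1.84e-18). The other Serpinh1 probe set gave 92.9 to 148 with CreER and 3077 to 3769 without, a difference of -4.70. Neither 4OH-TM nor time was called for Serpinh1 in either genotype. The nearest tested genes on each side of Serpinh1 on its chromosome, 3 a side and looked up after its values were seen, differed by -0.21 to 0.49. These were Uvrag (-0.21), Dgat2 (0.49) and Map6 (0.42) on one side, and Gdpd5 (0.18), Rps3 (0.038) and Arrb1 (0.37) on the other. Dgat2, Map6 and Arrb1 were called higher and Uvrag lower as deposited, against 11.4% of all tested genes higher and 40% lower. After quantile normalization all but Uvrag were called higher, against 33.6% of all genes higher and 31.6% lower.

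The promoter of Serpinh1 is shown because the gene had the largest genotype difference. It is the RefSeq sequence of GRCm38.p6, chr7:99353240-99353489 on the minus strand, the 250 bases before the annotated start, and capitals mark the GC box.
Serpinh1: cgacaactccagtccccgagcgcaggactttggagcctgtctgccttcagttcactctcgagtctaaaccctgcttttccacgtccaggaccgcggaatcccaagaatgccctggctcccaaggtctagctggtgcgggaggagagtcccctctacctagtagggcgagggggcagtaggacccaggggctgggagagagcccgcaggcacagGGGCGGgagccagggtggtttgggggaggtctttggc
The windows were searched on both strands for the GC box GGGCGG, the CCAAT box CCAAT, the TATA box TATAAA and the heat-shock element core TTCNNGAA, which do not overlap in this window. It held 1 GC box and 0 matches of the other motifs. Among 32851 promoter windows of this length 32.7% held a GC box, 33.9% a CCAAT box, 12.4% a TATA box and 7.17% a heat-shock element core. Of the 41 members 28 had a promoter in the RefSeq table, and a GC box stood in 21, a CCAAT box in 10, a TATA box in 4 and a heat-shock element core in 1, P4ha2. For the 6269 tested genes with a promoter entry the shares were 67.8%, 41.4%, 7.26% and 6.94% in the same order, with all starts of a gene counted. Some of the 28 members, P4ha2 and Col3a1 among them, were not tested, so the compared sets are not alike. These matches describe letters only.

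The enzymes that modify collagen moved little beside its chaperone. Plod1, a lysyl hydroxylase, was higher by 0.29 ± 0.091 as deposited (SE; limma adjusted p = 0.0044) and by 0.45 after quantile normalization (limma adjusted p = 2.03e-08). Its lowest, median and highest signals were 1079, 1327 and 1637 with CreER against 866, 1077 and 1677 without. P4ha1, the prolyl 4-hydroxylase subunit, was higher by 0.22 ± 0.093 as deposited (limma adjusted p = 0.0347) and by 0.39 after quantile normalization (limma adjusted p = 1.27e-08). Its signals were 929, 1037 and 1328 against 774, 933 and 1002. Arrays of both genes overlapped between genotypes, and the call of P4ha1 as deposited held in 6 of the 16 fits that left out 1 array. P4ha1 was called higher by 0.38 after median scaling, and its second probe set differed by 0.36 as deposited. Plod2, the lysyl hydroxylase of collagen telopeptides, differed by -0.12 ± 0.094 as deposited and by 0.060 after quantile normalization, and neither passed the test. P4ha2 exceeded background on 3 of 8 CreER arrays and 0 of 8 others, at 19.97 to 87.0 and 1.21 to 30.1.

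Of the fibrillar collagens 1 of 3 tested chains was higher and 2 were lower, against 11.4% and 40% of all tested genes. Col5a1 and Col5a2 encode the alpha chains that join in the common form of type V collagen, which regulates fibril assembly. Col5a1 was 263, 315 and 378 as lowest, median and highest signal with CreER and 104, 130.1 and 175 without. Every CreER array was above every other array, and the difference was 1.19 ± 0.099 (SE; limma, quantile-normalized adjusted p = 1.17e-11). Its other 2 probe sets differed by 0.68 and 1.05.

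Col5a2 stood the other way round, at 157, 224 and 376 with CreER and 1319, 1553 and 1788 without. Again the arrays did not overlap, and the means were 6.37-fold apart, a difference of -2.63 ± 0.095 (SE; limma, quantile-normalized adjusted p = 1.13e-16). The second Col5a2 probe set differed by -2.72. Col11a1, a chain of the type XI collagen that is close to type V, was at 24.7 to 49.3 on CreER arrays and 91.9 to 175 on the others. All 8 CreER arrays lay below background, so the signal without Cre was at least 2.68-fold higher, set against the 40th percentile of each CreER array. Col11a1 reached the limit for testing only through the arrays without Cre, so no p-value is given beside this bound.

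Of the network-forming and other collagens 4 of 5 tested chains were lower and 0 higher, against 40% and 11.4% of all tested genes. Col4a1 and Col4a2, neighbouring genes read from a shared promoter region, encode the main network collagen of basement membranes. Col4a1 was 472, 502 and 639 as lowest, median and highest signal with CreER and 766, 936 and 1053 without, with no overlap and a difference of -0.80 ± 0.094 (SE; limma, quantile-normalized adjusted p = 2.51e-10). Col4a2 was 121, 169.6 and 210.4 against 183, 227 and 253, with overlapping arrays and a difference of -0.39 ± 0.10 (limma, quantile-normalized adjusted p = 0.00246). Fitted with the actin ratio as a covariate, Col4a2 stood at -0.16 and was not called.

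Col18a1, the basement membrane collagen that releases endostatin, differed by -0.65 ± 0.12 (SE), at 10.1 to 89.6 with CreER and 56.6 to 114 without. The CreER array at 10.1 was replicate 2 of vehicle at 60 h, and leaving out single arrays moved the difference between -0.88 and -0.42. Between genotypes Col18a1 was called under vehicle, at -1.19, and not under 4OH-TM, at -0.11. Its second probe set differed by 0.062, the only 1 of 19 other probe sets of called genes with the opposite sign. Col9a1, a fibril-associated collagen, was 31.7 to 79.8 with CreER and 71.8 to 100.5 without. The difference of -0.44 ± 0.12 (limma, quantile-normalized adjusted p = 0.0052) became -0.36 and was not called with the actin ratio as a covariate. Between genotypes Col9a1 was not called under vehicle, at -0.18, and was called under 4OH-TM, at -0.69. Col6a2 differed by -0.14 ± 0.12 and was not called, and Col6a1 exceeded background on 3 CreER and 4 other arrays.

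Among the laminin chains 1 of 5 tested was higher, 3 were lower and 1 was not called, against 11.4% of all tested genes higher and 40% lower. The alpha chains went apart. Lama4, the alpha chain found in vascular basement membranes, was 6.91, 9.46 and 27.9 as lowest, median and highest signal with CreER and 178, 219 and 249 without. All CreER arrays lay below background and all others above, so Lama4 was at least 4.22-fold higher without Cre. Lama4 also reached the limit for testing only through the arrays without Cre, so no p-value is given beside this bound. The second Lama4 probe set pointed the same way at -1.56, with 5 of 16 arrays above background.

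Lama5, the broadly expressed alpha chain, was 785, 1114 and 1559 with CreER and 782, 839 and 1060 without. Its arrays overlapped, and it was higher by 0.35 ± 0.093 as deposited (SE; limma adjusted p = 5.86e-04). After quantile normalization it was higher by 0.52 (limma adjusted p = 5.01e-07). Lamb2 was lower, at 120.1 to 234 against 229 to 326 (difference -0.73 ± 0.098; limma, quantile-normalized adjusted p = 4.96e-07). Lamc1, the gamma chain shared by most laminins, was lower by 0.34 on the log2 scale, at 804 to 1267 against 1001 to 1614, and its second probe set differed by -0.019. It was not called with the actin ratio as a covariate, at -0.12, or with the mean of its probe sets, at -0.18. Lamb1 differed by 0.10 ± 0.095 and was not called as deposited. Relative to the median gene Lamb1 stood at 0.24, and after quantile normalization it was called higher by 0.29 (limma adjusted p = 0.00394).

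The proteins that link laminin to the collagen IV network differed among themselves. Nid2 (nidogen-2) was lower, at 62.8, 79.8 and 122 with CreER and 114, 145 and 172 without (difference -0.68 ± 0.11 SE; limma, quantile-normalized adjusted p = 3.7e-05). With the actin ratio as a covariate Nid2 stood at -0.39 and was not called. Nid1 (nidogen-1) was not tested, and it exceeded background on 6 of 8 CreER arrays and 0 of 8 others, at least 1.14-fold higher with CreER. Hspg2 (perlecan) differed by 0.17 ± 0.096 as deposited, which did not pass, and by 0.35 after quantile normalization, which did (limma adjusted p = 1.16e-04). With no filter on dim genes Nid1 and P4ha2 were called higher and Lama2 lower, though Lama2 lay below background on all arrays.

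Of the 5 tested glycoproteins 3 were higher, 1 was lower and 1 was not called, against 11.4% of all tested genes higher and 40% lower. The fibulins, which bind elastic fibres and basement membranes, took opposite directions. Fbln1 was 797, 1066 and 1156 as lowest, median and highest CreER signal and 298, 349 and 417 without Cre, with no overlap and a difference of 1.49 ± 0.095 (SE; limma, quantile-normalized adjusted p = 1.08e-13). Its second probe set differed by 1.48. Fbln2 was 263, 369 and 622 with CreER and 2790, 3089 and 3804 without, again with no overlap, which put its means 8.21-fold apart (difference -3.03 ± 0.092; limma, quantile-normalized adjusted p = 9.02e-18).

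The promoter of Fbln1 is given as that of the member with the largest rise. It is the RefSeq sequence of GRCm38.p6, chr15:85205699-85205948 on the plus strand, before the outermost annotated start.
Fbln1: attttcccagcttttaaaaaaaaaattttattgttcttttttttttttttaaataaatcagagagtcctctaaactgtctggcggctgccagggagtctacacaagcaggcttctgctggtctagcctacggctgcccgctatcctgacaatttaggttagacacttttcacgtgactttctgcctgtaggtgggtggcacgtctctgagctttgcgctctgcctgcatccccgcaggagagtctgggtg
It held 0 matches of the 4 motifs, and the window of the other annotated start of Fbln1 held a GC box.

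Fn1 (fibronectin), which cells assemble into fibrils through integrins, was 699.7, 785 and 1144 with CreER and 473, 588 and 682 without. The arrays did not overlap, although the difference was modest at 0.49 ± 0.094 as deposited (SE; limma adjusted p = 1.59e-06). After quantile normalization the difference was 0.66 (limma adjusted p = 1.5e-10). Sparc (osteonectin), a collagen-binding matricellular protein, was higher by 0.21 ± 0.079 as deposited (limma adjusted p = 0.0192), with 2350.0 to 4951 against 2181 to 3662. After quantile normalization it was higher by 0.30 (limma adjusted p = 1.13e-05). Its call came with the 4OH-TM arrays described below, since Sparc was not called between genotypes under vehicle. As deposited the call held in 9 of 16 fits that left out 1 array. The second Sparc probe set differed by 0.036. Tnc (tenascin-C), a glycoprotein of the stem cell niche, differed by -0.14 ± 0.076 and was not called.

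The lecticans, brain proteoglycans that bind hyaluronan and tenascins, were split. Vcan (versican) was 560.0, 751 and 1076 as lowest, median and highest signal with CreER and 1187, 1550 and 1700 without, with no overlap and a difference of -1.0 ± 0.092 (SE; limma, quantile-normalized adjusted p = 4.28e-12). Its other 2 probe sets differed by -1.16 and -1.53. Bcan (brevican) was 2019, 2426 and 2854 against 3124, 3318 and 3913, also with no overlap. Its difference was -0.48 ± 0.080 as deposited (limma adjusted p = 1.98e-08) and -0.38 after quantile normalization (limma adjusted p = 1.67e-08). Ncan (neurocan) was higher, at 1796, 2212 and 2449 against 1275, 1632 and 1911 with some overlap. Its difference was 0.42 ± 0.086 as deposited (limma adjusted p = 5.48e-06) and 0.55 after quantile normalization (limma adjusted p = 5.21e-09).

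Adamts5, an aggrecanase that cuts lecticans, was 26.2, 33.6 and 92.9 with CreER and 162, 195 and 248 without. No arrays overlapped, and 3 of 8 CreER arrays were above background against 8 of 8 others (difference -1.86 ± 0.11 SE; limma, quantile-normalized adjusted p = 5.39e-10). Its second probe set differed by -0.71.

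**Figure D3:**
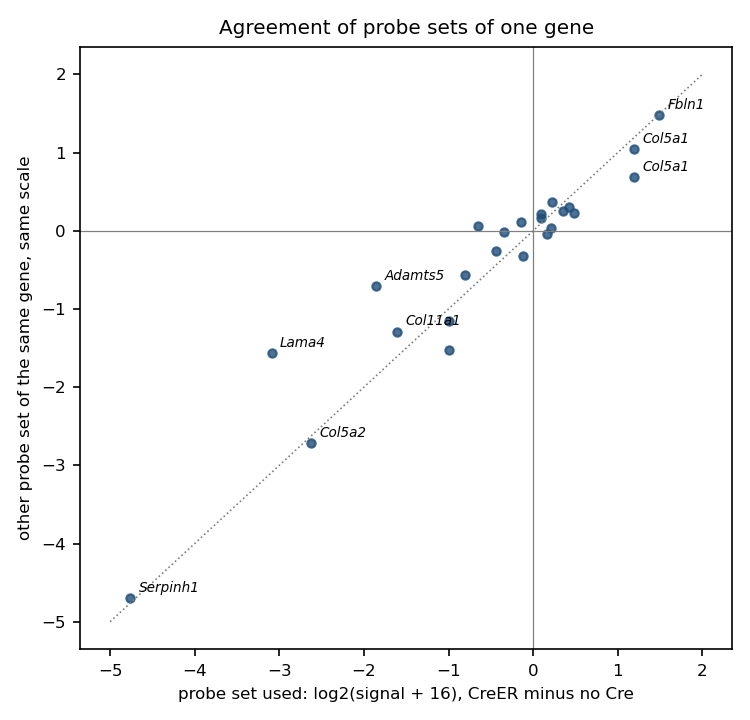
Genotype difference of the 24 other probe sets of 21 tested genes (vertical axis) against that of the probe set used for the same gene (horizontal axis), both CreER minus no Cre on the log2(signal + 16) scale; the dotted line marks equal values. The points of Serpinh1, Col5a2 and Fbln1 lie near the line, and those of Col5a1 are at 0.68 and 1.05 against 1.19 for the probe set used. Lama4 (-1.56) and Adamts5 (-0.71) have differences of smaller size in the other probe set.

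Over all called genes, 18 of the 19 other probe sets of 17 genes had the sign of the probe set used. The genotypes also differed in the cultures that never saw 4OH-TM. Under vehicle 4 members were higher and 14 lower, against 7.97% and 26.6% of all genes, and under 4OH-TM 8 were higher and 14 lower, against 8.58% and 30.0%. After quantile normalization 7 were higher and 14 lower under vehicle, against 29.2% and 26.0% of all genes, and 10 and 15 under 4OH-TM, against 27.7% and 28.3%. The share of members called higher was then below that of all genes under vehicle. The 4 genes higher under vehicle as deposited were Col5a1, Fbln1, Fn1 and Ncan, and Lama5, P4ha1 and Plod1 were called higher there too after quantile normalization and after median scaling. Whether each gene's genotype difference changed with treatment is given by the difference of the responses below. At 60 h and 36 h together the median member differed by -0.28 under either treatment.

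Other lists of matrix and signalling genes were counted between genotypes against the same background, 11.4% of all genes higher and 40% lower as deposited and 33.6% and 31.6% after quantile normalization. Of 12 tested matrix proteases and their inhibitors 2 were higher and 9 lower, and 3 and 9 after quantile normalization. Mmp16 was below background on all CreER arrays and at least 3.11-fold higher without Cre. Plat, the tissue plasminogen activator, differed by -0.89 ± 0.092 (SE), with Timp1, an inhibitor of metalloproteases, higher at 0.83 ± 0.10. Pcolce, which enhances procollagen C-terminal cleavage, was lower at -1.07 ± 0.11. Of 12 tested genes of collagen modification and secretion 0 were higher and 6 lower. They included P3h4 (-0.86 ± 0.095) and Mia3, the TANGO1 receptor for bulky collagen cargo (-0.50 ± 0.095), and after quantile normalization 3 of this list were higher and 6 lower.

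Of 18 tested matrix receptors 8 were higher and 8 lower, and 9 and 8 after quantile normalization. Ddr2, a collagen receptor kinase, was 374 ± 51.4 with CreER and 89.5 ± 17.8 without (SD, n = 8 each; difference 1.89 ± 0.10 SE). Itga6, the laminin-binding integrin alpha 6, and Cd44, the hyaluronan receptor, each differed by 1.21, and Sdc2 (syndecan-2) by -1.04. Of 5 other tested collagens and laminins 1 was higher and 2 lower (3 and 2 after quantile normalization), among them Col9a3 (-1.48 ± 0.098), a partner chain of Col9a1, and Col16a1 (0.64 ± 0.098). Of 12 other tested matrix proteins 3 were higher and 5 lower (5 and 5 after quantile normalization). Prelp, above background on 2 of 8 CreER arrays and 8 of 8 others, differed by -2.22 ± 0.11, with Fbn2 (fibrillin-2) at -0.77. Of 13 tested genes of the TGF-beta axis 4 were higher and 4 lower (6 and 3 after quantile normalization). Tgfb3 was below background on all arrays without Cre and at least 2.08-fold higher with CreER, with the receptor Tgfbr2 at -1.08 ± 0.094.

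Markers of cell types that make these matrix proteins were read beside the genotype differences as deposited, where 11.4% of all tested genes were higher and 40% lower. All 8 endothelial markers with a probe set lay below background on all arrays, as did 8 of 9 mural, 7 of 9 microglial and 3 of 4 ependymal ones, Pecam1, Cdh5, Pdgfrb and Rgs5 among them. Of 14 fibroblast and meningeal markers 9 lay below background on all arrays, Lum, Dpt and Fap among them, and 4 were tested, of which Thy1 and Prrx1 were higher and Foxc1 and Tbx18 lower. Thy1 was 2515 ± 395 with CreER and 133 ± 30.7 without (SD, n = 8 each), and Tbx18 was below background on all CreER arrays and at least 4.21-fold higher without Cre. The summed signal of the list was 2460 to 3744 with CreER and 1315 to 1736 without, mainly through Thy1, which neurons also express. Of 9 tested neural stem cell markers 1 was higher and 6 lower, and of 5 tested astrocyte markers 3 were higher and 2 lower, with Clu at 2.3 ± 0.095 and Gja1, below background on all CreER arrays, at least 3.2-fold higher without Cre. Both tested neuronal markers, Syt1 (-1.46) and Map2 (-0.41), were lower, and 0 of 4 oligodendrocyte lineage markers were called, with Olig1 at 7354 ± 499 and 7177 ± 408. The part of these markers in the matrix gene differences was not tested, and fewer cells of a type and less RNA per cell cannot be told apart in such cultures.

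The response to 4OH-TM was compared over both times within each genotype. In CreER cultures Sparc, Col18a1, Col5a2 and Lamb2 rose and Fbln2, Adamts5 and Col9a1 fell, 7 of the 28 tested members. Of all tested genes 4.0% were called higher and 8.36% lower. In cultures without Cre 0 members were called (limma; 1 at an unadjusted p under 0.05), against 0.0131% of all genes higher and 0.0525% lower, and after quantile normalization Tnc alone was called, as higher, against 0.486% and 0.328%. In CreER cultures quantile normalization left all 7 calls and directions in place and raised the counts to 11 higher and 4 lower, with 19.6% and 19.2% of all genes.

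**Figure D4:**
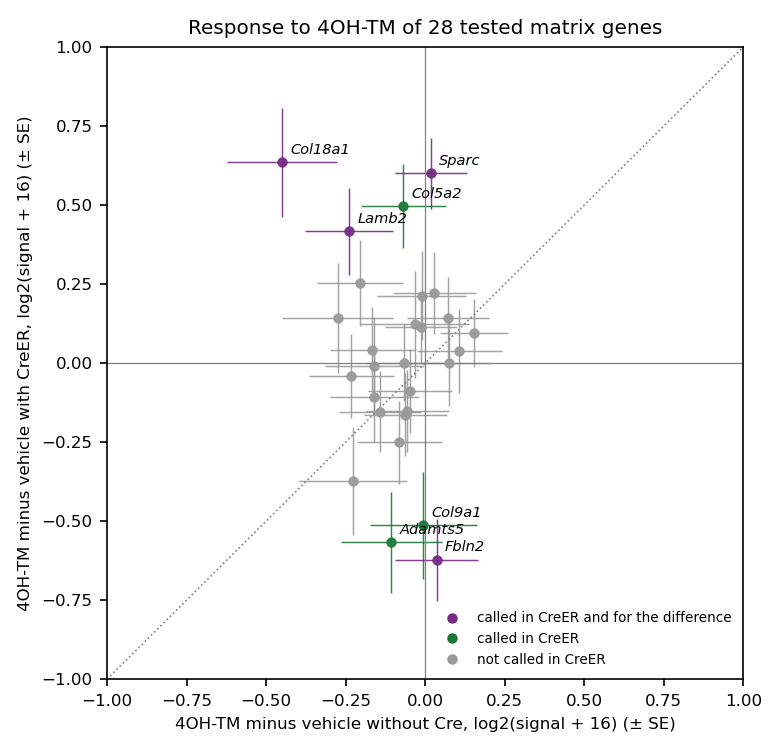
Difference between 4OH-TM and vehicle of the 28 tested matrix genes in cultures without Cre (horizontal axis) and with CreER (vertical axis), fitted over both times on the log2(signal + 16) scale with SE bars; the dotted line marks equal responses. The 7 named genes lie beyond 0.4 or below -0.5 on the CreER axis, and Col18a1 is the named gene farthest from 0 without Cre, at -0.45.

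Sparc gave 2602 and 2452 at 36 h and 3094 and 2350.0 at 60 h on the CreER vehicle arrays. Under 4OH-TM it gave 3319 and 3771 at 36 h and 3988 and 4951 at 60 h. All 4 treated arrays were above all 4 vehicle arrays, a rise of 0.60 ± 0.11 (SE; limma adjusted p = 6.33e-06, and 1.08e-06 after quantile normalization). Without Cre the vehicle arrays at 2432 to 2987 and the treated arrays at 2181 to 3662 overlapped, and the difference was 0.018 ± 0.11. The second Sparc probe set rose by 0.47 with CreER.

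The promoter of Sparc is given because Sparc was the rise under 4OH-TM with the smallest adjusted p among the members as deposited, though not after quantile normalization. It is the RefSeq sequence of GRCm38.p6, chr11:55420081-55420330 on the minus strand, and it held 0 matches of the 4 motifs.
Sparc: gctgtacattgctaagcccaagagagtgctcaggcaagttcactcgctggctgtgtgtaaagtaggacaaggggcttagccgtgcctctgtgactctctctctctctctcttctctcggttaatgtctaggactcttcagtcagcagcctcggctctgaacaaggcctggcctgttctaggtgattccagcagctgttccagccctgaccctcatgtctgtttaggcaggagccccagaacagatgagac

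Col5a2, so low with CreER, rose on the probe set used. It went from 189 and 217 to 231 and 234 at 36 h and from 216 and 157 to 295 and 376 at 60 h. The treated arrays stood above the vehicle arrays at each time, and the rise was 0.50 ± 0.13 (SE; limma adjusted p = 0.00389, and 6.36e-07 after quantile normalization). The second Col5a2 probe set, above background on 13 of 16 arrays, did not show this rise, with a change of 0.037. All treated CreER arrays remained below all arrays without Cre, of which the lowest was 1319. Lamb2 rose by 0.42 ± 0.14 (limma adjusted p = 0.0274), from 120.1 to 183 under vehicle to 157 to 234 under 4OH-TM, with overlapping arrays, and the call was lost in 4 of 16 fits that left out 1 array.

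Col18a1 was called at 0.64 ± 0.17 (SE; limma adjusted p = 0.00422, and 0.037 after quantile normalization). At 36 h its vehicle arrays gave 45.2 and 35.2 and its treated arrays 58.3 and 54.8. At 60 h they gave 76.8 and 10.1 under vehicle and 63.4 and 89.6 under 4OH-TM. Without the vehicle array at 10.1 the difference was 0.18 and no longer called, so the call rests on 1 array, and the second probe set of Col18a1 rose by 0.18.

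Fbln2 fell further in the genotype where it was already low, from 384 and 380.4 to 263 and 292 at 36 h and from 622 and 496 to 272 and 357 at 60 h. All 4 treated arrays lay below all 4 vehicle arrays, a difference of -0.62 ± 0.13 (SE; limma adjusted p = 7.4e-05). Without Cre the same difference was 0.036 ± 0.13. Adamts5 gave 87.9 and 92.9 under vehicle and 26.2 and 54.4 under 4OH-TM at 36 h, and 31.7 and 35.4 against 26.5 and 29.6 at 60 h. Only the 36 h vehicle arrays and 1 treated array were above background. The difference over both times was -0.57 ± 0.16 (limma adjusted p = 0.00588). Without the first replicate of 4OH-TM at 36 h it was -0.38 and not called.

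Col9a1 fell by 0.51 on the log2 scale (SE 0.17; limma adjusted p = 0.0255), from 66.4 to 79.8 under vehicle to 31.7 to 54.2 under 4OH-TM. Its treated and vehicle arrays did not overlap, and the call was lost in 5 of 16 fits that left out 1 array. The second Col9a1 probe set pointed the same way at -0.26.

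**Figure D5:**
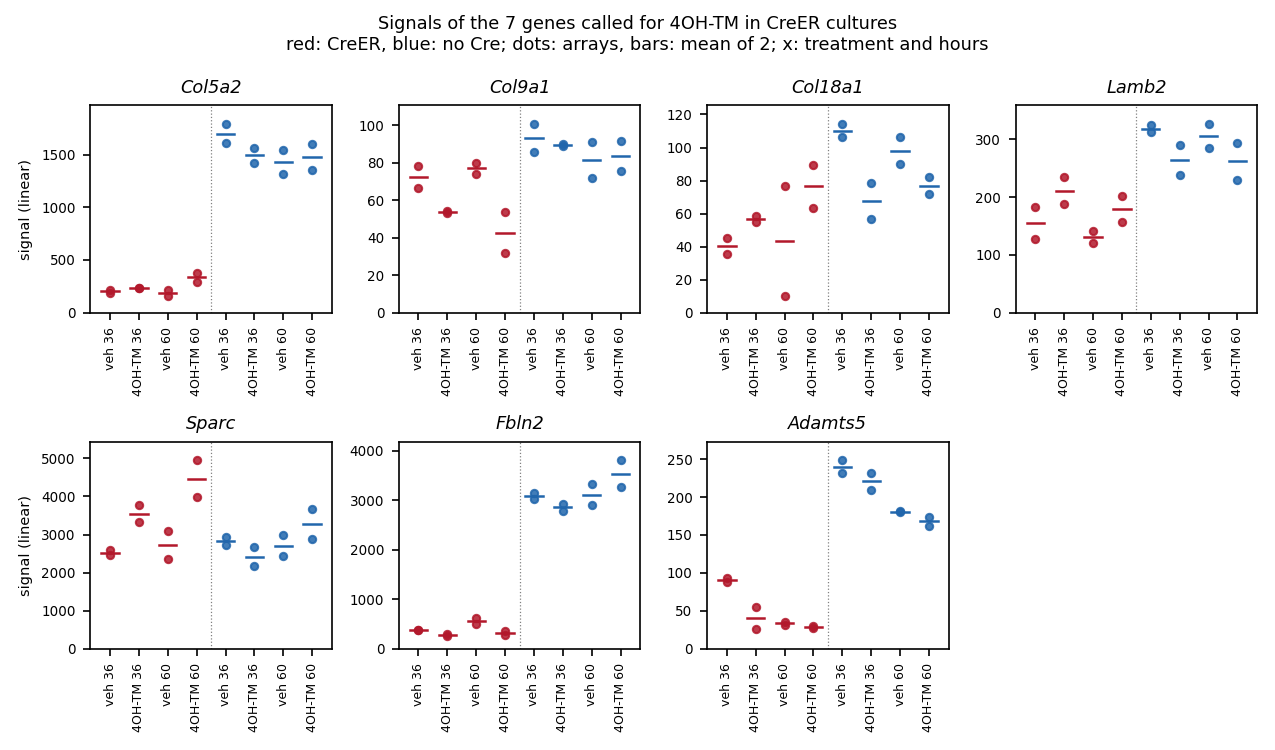
Signal of each array (dots, linear axis from 0) and mean of the 2 replicates (bars) in the 8 groups for the 7 genes called for 4OH-TM in CreER cultures (red: CreER, blue: no Cre). Sparc is highest on the treated CreER arrays at 60 h, Fbln2 and Col5a2 stay far below the arrays without Cre under either treatment, and 1 CreER vehicle array of Col18a1 at 60 h lies at 10.1.

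The responses themselves differed between genotypes for 4 members, by the interaction term of the fit. Col18a1 (1.08 ± 0.24 SE), Lamb2 (0.66 ± 0.20) and Sparc (0.58 ± 0.16) had the higher response with CreER and Fbln2 (-0.66 ± 0.18) the lower one, at limma adjusted p-values of 0.00129, 0.0391, 0.017 and 0.0229. Of all genes 1.52% and 0.814% were called in these directions, and after quantile normalization 6 members were higher and 1 lower, against 9.07% and 10.1%. Col18a1 and Lamb2 also had negative differences without Cre, -0.45 ± 0.17 and -0.24 ± 0.14, which were not called. For Col5a2, Col9a1 and Adamts5, called in CreER cultures only, the difference of responses did not pass as deposited, and for Col5a2 it passed after quantile normalization (limma adjusted p = 4.96e-05).

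The count of 4 fell to 1 or 2 without any 1 of 10 arrays. It was 1 without CreER vehicle 60 h replicate 2, CreER 4OH-TM 36 h replicate 2, no-Cre vehicle 36 h replicate 1 or no-Cre 4OH-TM 36 h replicate 2. It was 2 without CreER 4OH-TM 60 h replicate 2, no-Cre vehicle 36 h replicate 2, either replicate of no-Cre vehicle at 60 h, no-Cre 4OH-TM 36 h replicate 1 or no-Cre 4OH-TM 60 h replicate 2. Over the 16 such fits Col18a1 kept its call in 15, Sparc in 9, Fbln2 in 7 and Lamb2 in 5. With no filter on dim genes 0 members were called for the difference of responses.

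Between 36 h and 60 h 2 members fell in CreER cultures and 0 rose, against 3.58% and 1.69% of all genes. The direction of this count depended on the scaling: 9 rose and 3 fell after quantile normalization, against 11.2% and 11.6% of all genes, and 5 rose and 3 fell after median scaling, against 5.52% and 16.1%. Vcan and Adamts5 fell in all of these. Vcan gave 939 and 1076 under vehicle and 810.5 and 784 under 4OH-TM at 36 h, and 676, 574, 560.0 and 718 in the same order at 60 h. All 4 later arrays lay below all 4 earlier ones, a difference of -0.50 ± 0.13 (SE; limma adjusted p = 0.00485, and 8.1e-06 after quantile normalization). Adamts5 differed by -0.71 ± 0.16 (limma adjusted p = 5.91e-04), and all 4 arrays at 60 h were below background. The drop was larger under vehicle, from a mean of 90.4 to 33.6, than under 4OH-TM, from 40.3 to 28.1, and that difference was not tested. Vcan lost its call when CreER vehicle 36 h replicate 2 or CreER 4OH-TM 60 h replicate 1 was left out, and Adamts5 when CreER 4OH-TM 36 h replicate 2 was. The count of 2 was 1 without either of those 36 h arrays.

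Without Cre 0 members were called for time (limma; 7 at an unadjusted p under 0.05), against 2.52% of all genes higher and 1.58% lower. The count was 1 without either replicate of CreER vehicle at 60 h, and those arrays enter this comparison through the shared spread only. It also depended on the scaling, with 7 members higher and 2 lower after quantile normalization, against 12.3% and 14.8% of all genes, and 3 higher and 7 lower after median scaling, against 6.57% and 39.6%. The 36 h arrays without Cre were those with the lowest actin ratio, 0.548 to 0.667 against 0.773 to 0.891 at 60 h without Cre. With that ratio as a covariate the count was again 0. That fit cannot separate time from RNA integrity, because the ratio and time moved together, so the part of RNA integrity was not tested. The difference of the time effects between genotypes was called for 0 members (limma; 1 at an unadjusted p under 0.05), against 0.866% and 1.27% of all genes, and for 4 higher and 3 lower after quantile normalization, against 8.62% and 8.53%.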

How the data were processed

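The deposited table holds 1 linear intensity (signal) for each probe set and array. MAS5 is named per the submitters' processing notes, and its version and scaling target are not given in the sources used here. RNA was extracted with TRIzol and labelled by in vitro transcription with biotin, per the labels' protocols. Of 22690 probe sets 64 controls were left out, 20380 had 1 gene symbol, 691 several and 1555 none. Symbols were checked by Entrez ID against RefSeq (GRCm38.p6), with 20351 matched and 0 changed.

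Signals were taken as log2(signal + 16) without rescaling. Genes under the 40th percentile of the mean, a signal of 51.1, were left out, which left 7619. limma 3.58.1 in R 4.3.3 fitted 8 group means to all 16 arrays with a trend of variance on brightness. Tests were two-sided, and p-values were adjusted over all tested genes by Benjamini-Hochberg at 0.05. The prior degrees of freedom were infinite, 11.1 after median scaling and 6.84 after quantile normalization. "Above background" was set by each array's 40th percentile, as no presence calls were used; olfactory receptor probe sets had a 95th percentile of 27.4 to 54.9. A bound ("at least") set the mean log2 signal of the brighter genotype against the mean of those percentiles. Fits were tested on simulated data for the genotype comparison (7619 genes). They recovered 66 of 67 genes at a 1.5-fold change, 66 of 67 at 2-fold and 66 of 66 at 3-fold, with 6 false calls. All changed genes were raised there and array offsets were unrelated to genotype, whereas 40% of the measured genes were called lower. The 6 false calls therefore do not give the error rate of the reported comparison.

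Same-numbered arrays of different groups did not deviate together (r from -0.109 to 0.291 over 28 pairs of groups), so replicate numbers were not taken as pairs. The members and the gene lists were chosen with earlier results of these data known. All members are described, and from each other list the genes with the smallest p between genotypes, with the brightest cell type markers. Alternatives were other scalings, pseudocounts, filters, probe set means, variance models, the actin ratio as covariate, the replicate number as block, and each array left out; 2 were chosen after seeing the data, namely quantile normalization with no filter and with a robust variance trend.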

Additional observations from a re-analysis of the deposited data

Results flagged for a closer look

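Within the 8 arrays of a genotype, 2 of 56 sets of values held 1 array far from the rest, against about 1 in 20 by chance. Col9a1 was lowest at 31.7 on CreER 4OH-TM 60 h replicate 1, and Lama4 was highest at 27.9 on CreER 4OH-TM 60 h replicate 2, where it was still below background.

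The response to 4OH-TM differed between genotypes for 4 genes by the interaction test. The difference was 1.08 for Col18a1, 0.66 for Lamb2, 0.58 for Sparc and -0.66 for Fbln2 on the log2(signal + 16) scale. The Col18a1 value fell to 0.63 without CreER vehicle 60 h replicate 2 and was then not called.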

How the results depend on the processing

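Of 799 repeats of single members' genotype differences, 753 kept direction and side of the threshold, 25 lost the call, 15 gained one and 6 changed sign. The sign changes were those of 2 uncalled genes: Plod2, at 0.038 after median scaling and 0.060 in all 3 quantile-normalized fits, and Tnc, at 0.015 after median scaling and 0.038 with the actin ratio as covariate. The counts of members called varied as follows. Between genotypes 23 became 15 with a filter at the 60th percentile, and under vehicle 18 became 11. For 4OH-TM in CreER cultures 7 became 14 with median scaling, 15 with quantile normalization and with its robust trend, 12 with quantile normalization and no filter, 3 with no filter alone, and 4 with the 60th percentile filter and with the mean of probe sets. Without Cre 0 became 1 with quantile normalization, also with its robust trend. For the difference of responses 4 became 7 with quantile normalization, filtered or not, 2 with the 60th percentile filter and 0 with no filter. For time with CreER 2 became 8 with median scaling, 12 in the 3 quantile-normalized fits, 4 with the actin ratio and 1 with the 60th percentile filter. For time without Cre 0 became 10 with median scaling, 9 with quantile normalization and its robust trend, 7 with quantile normalization and no filter, 1 with no filter and 2 with the spread of those arrays alone. For the difference of time effects 0 became 5 with median scaling, 7 with quantile normalization and its robust trend, and 6 with quantile normalization and no filter. The 60th percentile filter tests fewer genes; otherwise the cause was not tested. Leaving out 1 array gave 21 to 24 calls between genotypes, 16 to 18 under vehicle, 18 to 22 under 4OH-TM, 5 to 7 for 4OH-TM with CreER, 0 without, 1 to 6 for the difference of responses, 1 to 3 for time with CreER, 0 to 1 without, and 0 for the difference of time effects. With the replicate block the counts were 23, 18, 21, 7, 0, 3, 2, 0 and 0 in the same order. Signal over background limits the 12 untested members and the low values of Lama4, Col11a1 and Adamts5.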
